A study of Homo sapiens with 18 samples.

Results

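The genes of the class I phosphoinositide 3-kinases (PI3K) were followed across 18 RNA-seq libraries of RPMI-8402, a human cell line that was established from T-ALL, acute lymphoblastic leukaemia of the T-cell lineage. Members were chosen by name: the regulatory subunits PIK3R1, PIK3R2, PIK3R3 and PIK3R5 and the catalytic subunits PIK3CA, PIK3CB, PIK3CD and PIK3CG. These are 8 of the 58735 genes in the gene table, and they carry 83 of the 206601 annotated transcripts. 7 of the 8 passed the filter on low counts and entered the tests, and PIK3R5 did not.

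The cells were either non-targeting controls (NT, labelled wild type) or PIK3R1 knockouts (KO). Both genotypes were grown in serum-containing medium and exposed for 24 h to the vehicle DMSO, to CB-103 or to LY3039278, a gamma-secretase inhibitor abbreviated GSI here. The compound CB-103 blocks the NOTCH transcription complex, and a gamma-secretase inhibitor prevents the cleavage that frees the active part of NOTCH receptors. Each of the 6 groups held 3 libraries. The sources used here do not give the edited position in PIK3R1, whether the knockout cells were a clone or a pool, or the inhibitor doses, so a property of 1 clone and an effect of the knockout cannot be told apart. The labels also do not call the replicates separate cultures, so p-values measure only the spread between these libraries, which may be technical.

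Class IA PI3Ks are dimers of a p110 catalytic subunit (PIK3CA encodes p110α, PIK3CB p110β and PIK3CD p110δ) with a p85-type regulatory subunit that binds phosphotyrosines, stabilises p110 and restrains it until a receptor or adaptor recruits the pair to the membrane. The class IB enzyme p110γ, from PIK3CG, works instead with p101 (PIK3R5) or p84 (PIK3R6) downstream of G protein-coupled receptors. All make the lipid PIP3, which recruits AKT and other signalling proteins to the membrane, and p110δ and p110γ are the forms known for their abundance in leukocytes. PIK3R1 encodes p85α from its first promoter and the shorter p55α and p50α, which lack the amino-terminal part, from inner promoters.

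Those starts are shown because the reads could be split between them. The sequences are from RefSeq (GRCh38.p14), plus strand, 5′ to 3′, and each ends where the first annotated transcript begins. The p85α window is chr5:68215506-68215719, the p50α window chr5:68288269-68288367 and the p55α window chr5:68290414-68290636.
PIK3R1, before p85α: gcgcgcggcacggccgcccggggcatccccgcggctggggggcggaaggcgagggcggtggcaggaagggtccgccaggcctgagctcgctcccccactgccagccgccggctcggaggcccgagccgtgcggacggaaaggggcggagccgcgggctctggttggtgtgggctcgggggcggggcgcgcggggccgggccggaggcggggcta
PIK3R1, before p50α: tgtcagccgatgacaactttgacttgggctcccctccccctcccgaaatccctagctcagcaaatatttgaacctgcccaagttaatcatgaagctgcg
PIK3R1, before p55α: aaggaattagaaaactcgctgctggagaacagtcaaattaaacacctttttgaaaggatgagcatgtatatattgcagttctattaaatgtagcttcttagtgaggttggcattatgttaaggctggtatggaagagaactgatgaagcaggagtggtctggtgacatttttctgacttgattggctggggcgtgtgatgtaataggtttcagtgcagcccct
The stretch before the first start of PIK3CD (chr1:9651481-9651730, plus strand) is shown because it holds the only RBPJ-type match among the members; RBPJ is the DNA-binding partner of NOTCH, and the matched letters are in capitals.
PIK3CD: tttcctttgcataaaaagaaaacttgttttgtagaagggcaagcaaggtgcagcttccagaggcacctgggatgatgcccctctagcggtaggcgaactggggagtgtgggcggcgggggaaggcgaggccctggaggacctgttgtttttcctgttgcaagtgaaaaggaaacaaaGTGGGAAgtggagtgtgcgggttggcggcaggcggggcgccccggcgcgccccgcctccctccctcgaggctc
A stretch of PIK3CA (chr3:179148197-179148226, plus strand) holds the only FOXO-type match, in capitals; it lies before a RefSeq start at position 179148357 but downstream of the first GENCODE 29 start at 179148114, so within the gene as GENCODE annotates it. FOXO factors are held out of the nucleus by AKT.
PIK3CA: agttcgttgttTGTTTACacgatgtgagcg

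All 8 members had at least 1 window in the RefSeq table, 20 windows of 250 bases in all. The letters searched on both strands were GTGGGAA for RBPJ, GTAAACA for FOXO and CACGTG for the E-box bound by MYC and its relatives. RBPJ letters were in 1 of the 20 windows, 73 bases before the PIK3CD start, and in 5.43% of all 35116 windows of that length. FOXO letters were in 1 of the 20, in reverse orientation 149 bases before that RefSeq start of PIK3CA, and in 2.98% of all windows. E-box letters were in 0 of the 20 and in 6.34% of all windows. The 3 motifs do not overlap, and a match is a run of letters, not a binding site.

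The libraries held from 30416183 to 43558387 estimated reads. Levels below are CPM, a gene's reads scaled to the size of its library with TMM factors, and differences are log2 fold changes with their standard error (SE) from the quasi-likelihood test of edgeR, fitted over all 17346 tested genes and called at a Benjamini-Hochberg adjusted p under 0.05. Of 12 T-ALL and thymocyte markers 11 reached 1 CPM in some library, and CD1A did not. Their summed level was 2282 to 2331 CPM in NT DMSO libraries, 957 to 1104 under CB-103 and 2323 to 2433 under GSI, against 1939 to 2028, 1147 to 1247 and 2098 to 2176 CPM in KO libraries. In KO against NT cells 2 of the 12 were called higher and 5 lower under DMSO, 7 and 1 under CB-103, and 4 and 4 under GSI. Over all tested genes 9.78% were called higher and 11.7% lower under DMSO, 20.4% and 16.5% under CB-103, and 18.8% and 15% under GSI. B-cell markers summed to at most 5.67 CPM, with 2 of their 3 tested genes higher in KO cells under CB-103 and 1 under DMSO and GSI. Myeloid markers summed to at most 3.43 CPM, while the erythroid genes HBB and HBA1 were at 0 in every library. Of the adherent-cell markers only COL1A1 reached 1 CPM, and that list summed to 2.73 to 25.9 CPM. The NOTCH targets HES1, DTX1 and MYC were called lower with both inhibitors in both genotypes. Their part, and that of the marker lists, in the results below was not tested.

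**Figure D1:**
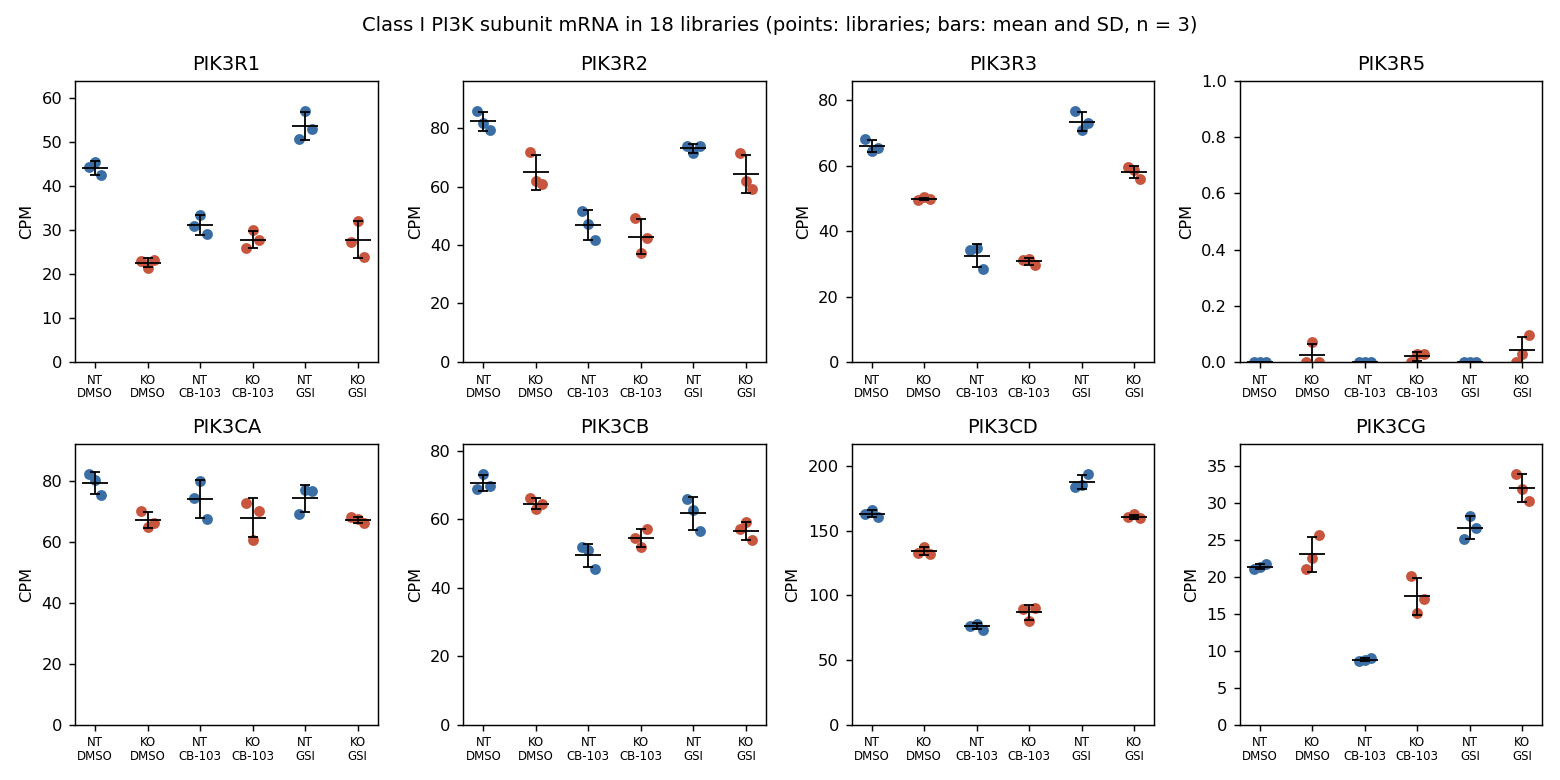
TMM-scaled CPM (vertical axis, from 0) of the 8 class I PI3K genes in the 6 groups (horizontal axis), with NT libraries in blue and KO libraries in red; bars are the mean and SD of 3 libraries. PIK3CD and PIK3R3 are lowest under CB-103 in both genotypes, the KO DMSO group has the lowest PIK3R1 mean, and PIK3R5 stays at or near 0.

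PIK3R1 (chr5:68215720-68301821, GRCh38, GENCODE 29) was 1.96-fold lower in KO cells under DMSO and 1.93-fold lower under GSI, was not called different under CB-103, and was detected in every KO library. Under DMSO, KO libraries had 23.1, 21.4 and 23.2 CPM and NT libraries had 44.3, 45.5 and 42.5. With GSI, KO libraries had 27.4, 32.2 and 23.9 CPM against 50.7, 57.1 and 53.0 in NT. With CB-103, KO libraries had 25.9, 29.9 and 27.6 CPM and NT libraries 30.9, 33.5 and 29.05. The genotypes were fully separated under DMSO and GSI, and under CB-103 the highest KO library lay above the lowest NT library. The KO-minus-NT difference was -0.97 ± 0.09 under DMSO (edgeR adjusted p = 4.1e-07), -0.95 ± 0.09 under GSI (adjusted p = 3.9e-07) and -0.16 ± 0.09 under CB-103 (adjusted p = 0.17; 95% interval -0.35 to 0.03). An edited gene can still be transcribed, and reads were counted over the whole gene, so these values check the label only in part. In bulk RNA, fewer cells with the transcript and less of it per cell cannot be told apart.

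The PIK3R1 reads were almost all p85α. Of the 16 annotated transcripts, PIK3R1-211 (7011 nt, 724 codons) received 98.4% of the estimated PIK3R1 reads over the 18 libraries. PIK3R1-201, the 424-codon p50α form, received 21.4 reads in all, and PIK3R1-202, the 454-codon p55α form, 19.3. No library had more than 6.5 reads of the first or 12.7 of the second, so the transcripts from the inner promoters shown above were at the edge of detection in both genotypes. PIK3R1-213, the other transcript of 724 codons, received 67.9 reads in 3 libraries, and PIK3R1-216, of 361 codons, 94.3 reads in 8.

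For PIK3R1-211 alone, the transcript fit gave KO-minus-NT differences of -1.09 under DMSO (edgeR adjusted p = 1.1e-06) and -0.94 under GSI (adjusted p = 3.2e-06). Under CB-103 it gave -0.27 ± 0.07 (adjusted p = 0.026), a call that the gene table did not make. Over the alternatives that p ran from 0.0061 to 0.15, and the call ended with no count filter, with replicates 2 and 3 only, and without NT CB-103 replicate 1 or 2 or KO CB-103 replicate 2 or 3. Of 66184 transcripts tested, 2.98% were called in either direction under DMSO, 9.68% under CB-103 and 8.32% under GSI.

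The CB-103 comparison of PIK3R1 differed with the way transcript reads were turned into gene counts. In KO CB-103 replicate 2 the deposited gene count was 1020, while the transcript reads summed to 850.2. That library gave 7.3 reads to PIK3R1-215, an annotated coding transcript of 552 nt, KO GSI replicate 2 gave it 5.7, KO CB-103 replicate 3 gave it 4.0, and the other 15 libraries gave it 0. The gene count lay 20.0%, 17.0% and 7.02% above the read sum in those libraries, and between -5.01% and 9.63% from it in the others. Length-scaled TPM, in which reads of a short transcript weigh more, gave 1008.2 for KO CB-103 replicate 2 when recomputed and 890.9 without PIK3R1-215. The KO-minus-NT difference under CB-103 was -0.33 ± 0.06 from read sums (edgeR adjusted p = 7.6e-05), -0.16 from recomputed length-scaled TPM (adjusted p = 0.17) and -0.27 ± 0.07 without PIK3R1-215 (adjusted p = 0.0071), and over all alternatives the adjusted p ran from 7.6e-05 to 0.51. Over the alternatives run, the difference ranged from -0.33 to -0.12 under CB-103, from -1.09 to -0.94 under DMSO and from -1.06 to -0.85 under GSI.

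**Figure D2:**
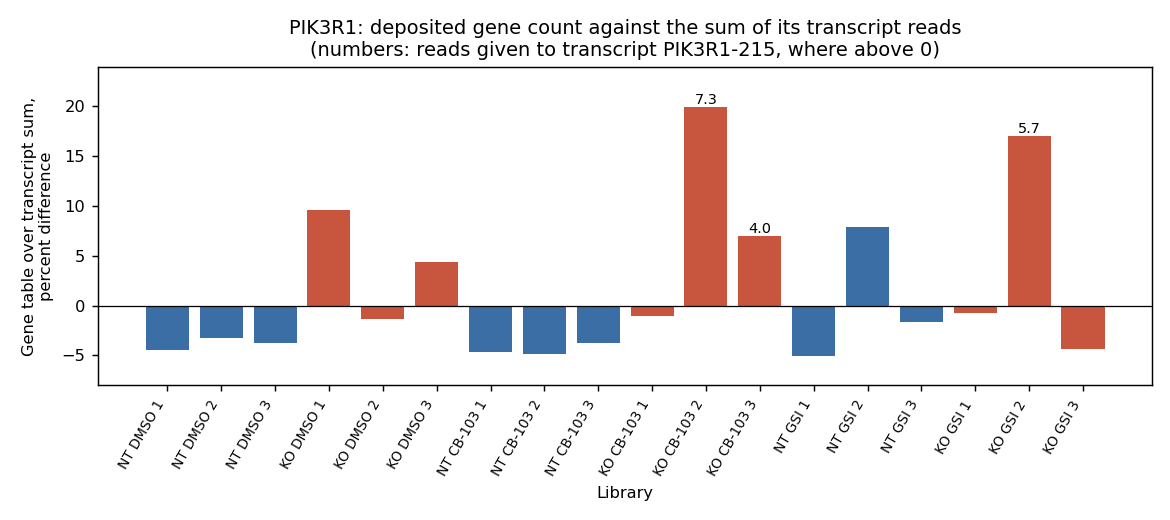
Percent difference of the deposited PIK3R1 gene count from the sum of its transcript reads (vertical axis) in each of the 18 libraries (horizontal axis), NT in blue and KO in red; numbers are reads given to PIK3R1-215. The 2 tallest bars, 20.0% and 17.0%, are KO CB-103 replicate 2 and KO GSI replicate 2, which have 7.3 and 5.7 such reads.

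Among the other regulatory subunits, both PIK3R2 and PIK3R3 were lower in KO cells under DMSO. PIK3R2 (chr19:18153118-18170540), which encodes p85β, had 71.8, 62.1 and 60.8 CPM in KO DMSO libraries and 85.9, 81.7 and 79.6 in NT. All KO values lay below all NT values, with a difference of -0.34 ± 0.10 (edgeR adjusted p = 0.014; 4.5e-04 to 0.058 over the alternatives). That call ended without NT DMSO replicate 1 or without KO DMSO replicate 2 or 3. For its leading transcript PIK3R2-201 alone, the difference was -0.25 and was not called (edgeR adjusted p = 0.19). With GSI, PIK3R2 was at 71.6, 62.1 and 59.4 CPM in KO and 73.9, 71.5 and 74.0 in NT, ranges that just overlap (-0.18 ± 0.10, adjusted p = 0.15). Under CB-103 it was at 49.2, 37.2 and 42.5 CPM against 51.7, 47.3 and 41.7, again overlapping (-0.13, adjusted p = 0.34). Under GSI it was called from gene sums of transcript reads (adjusted p = 0.0081), from replicates 2 and 3 only (0.012) and with the replicate block (-0.19, 0.027), within a range of 0.0081 to 0.40.

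PIK3R3 (chr1:46040140-46133036, minus strand) encodes p55γ. It was at 49.5, 50.3 and 49.8 CPM in KO DMSO libraries and 68.1, 64.6 and 65.4 in NT, with no overlap and little spread among the KO libraries (-0.41 ± 0.06, edgeR adjusted p = 8.8e-05). With GSI it was at 59.6, 58.6 and 55.9 CPM in KO and 76.7, 70.9 and 73.0 in NT (-0.34 ± 0.06, adjusted p = 3.4e-04). Under CB-103 the values were 31.2, 31.6 and 29.6 against 34.3, 34.8 and 28.5 CPM, and the genotypes overlapped (-0.08 ± 0.06, adjusted p = 0.36; 0.020 without NT CB-103 replicate 3, the lowest, and up to 0.73).

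The regulatory partner of p110γ in the member list, PIK3R5 (chr17:8878911-8965712, minus strand), was essentially not detected. It had 0 counts in all 9 NT libraries and 9 counts in total in 5 of the 9 KO libraries, with at most 3 in any library. A count of 0 allows up to 3 counts, which is 0.0704 to 0.0956 CPM in these libraries, so counts of 0 and of up to 3 cannot be told apart at this depth.

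Of the catalytic subunits, PIK3CD and PIK3CG differed between genotypes in a way that depended on treatment, and PIK3CA and PIK3CB differed little. PIK3CD (chr1:9651732-9729114) was the most abundant member in NT DMSO cells. Under DMSO it was at 132.9, 137.4 and 131.7 CPM in KO and 163.0, 165.9 and 160.4 in NT (-0.28 ± 0.05, edgeR adjusted p = 1.9e-04). Under GSI it was at 160.3, 162.5 and 159.5 CPM in KO and 184.0, 185.0 and 193.8 in NT (-0.22 ± 0.05, adjusted p = 0.0012). Under CB-103 the order turned, with 89.7, 80.3 and 90.1 CPM in KO above 76.5, 77.9 and 73.3 in NT (0.19 ± 0.05, adjusted p = 0.0036). KO and NT libraries were fully separated in all 3 comparisons, in opposite directions. For the leading transcript PIK3CD-202 alone, the transcript fit called only the CB-103 difference (0.28, edgeR adjusted p = 0.010). It gave -0.24 under DMSO (adjusted p = 0.056) and -0.10 under GSI (adjusted p = 0.39), neither called.

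PIK3CG (chr7:106865278-106907145) was 1.98-fold higher in KO cells under CB-103. There it was at 20.1, 15.1 and 16.9 CPM in KO and 8.56, 8.76 and 9.003 in NT, with no overlap (0.99 ± 0.10, edgeR adjusted p = 4.2e-07). In the highest of these, KO CB-103 replicate 1, the gene count was 670 and the transcript reads summed to 539.7. That gap of 24.1% was the largest of any tested member, and the other libraries of this comparison lay below their read sums. The difference ran from 0.85 to 1.05 with 1 library left out, and its adjusted p from 9.2e-19 to 2.0e-04 over the alternatives. Under DMSO the values were 21.0, 22.6 and 25.6 against 21.0, 21.3 and 21.6 CPM, which overlapped (0.11 ± 0.09, adjusted p = 0.43). With GSI they were 33.9, 31.8 and 30.2 against 25.1, 28.2 and 26.5 CPM (0.26 ± 0.09, adjusted p = 0.028), again with no overlap. The GSI call ended with gene sums of transcript reads (0.072), with replicates 2 and 3 only (0.15), and without NT GSI replicate 1 or 3 or KO GSI replicate 1 or 2, and its p ran from 0.015 to 0.15.

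PIK3CA (chr3:179148114-179240093) was at 70.2, 64.9 and 66.2 CPM in KO DMSO libraries and 82.3, 80.4 and 75.3 in NT, without overlap (-0.24 ± 0.07, edgeR adjusted p = 0.020). The call ended without NT DMSO replicate 1 or 2 or KO DMSO replicate 2 or 3, and its p ran from 7.0e-05 to 0.081. With GSI it was at 68.2, 67.4 and 66.3 CPM against 69.2, 77.0 and 76.8 (-0.14, adjusted p = 0.13), and under CB-103 at 72.8, 60.7 and 70.2 against 74.3, 80.0 and 67.6 (-0.12, adjusted p = 0.19). Gene sums of transcript reads called both of these lower, at -0.23 (adjusted p = 3.3e-04) and -0.17 (adjusted p = 0.0030). PIK3CB (chr3:138652699-138834938, minus strand) was called in none of the 3 genotype comparisons, with differences of -0.13, 0.14 and -0.12 under DMSO, CB-103 and GSI. Its KO libraries had 66.2, 63.1 and 64.4 CPM under DMSO against 68.8, 73.3 and 69.7 in NT, and gene sums called that gap (-0.23, adjusted p = 0.0065).

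Counted together, 5 of the 7 tested members were called lower and 0 higher in KO cells under DMSO, where 11.7% of all tested genes were called lower and 9.78% higher. Under GSI 3 members were lower and 1 higher, beside 15% called lower and 18.8% called higher among all genes. Under CB-103 2 were higher and 0 lower, beside 20.4% and 16.5%. The median member difference was -0.28 under DMSO, -0.18 under GSI and -0.08 under CB-103, while the median over all tested genes was 0.00 each time. The lower calls under DMSO comprised all 3 class IA regulatory subunits, the knocked-out PIK3R1 among them, and 2 catalytic subunits. By leading transcript alone, those of PIK3R1 and PIK3R3 were called lower under DMSO and those of PIK3R2, PIK3CA and PIK3CD were not called.

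**Figure D3:**
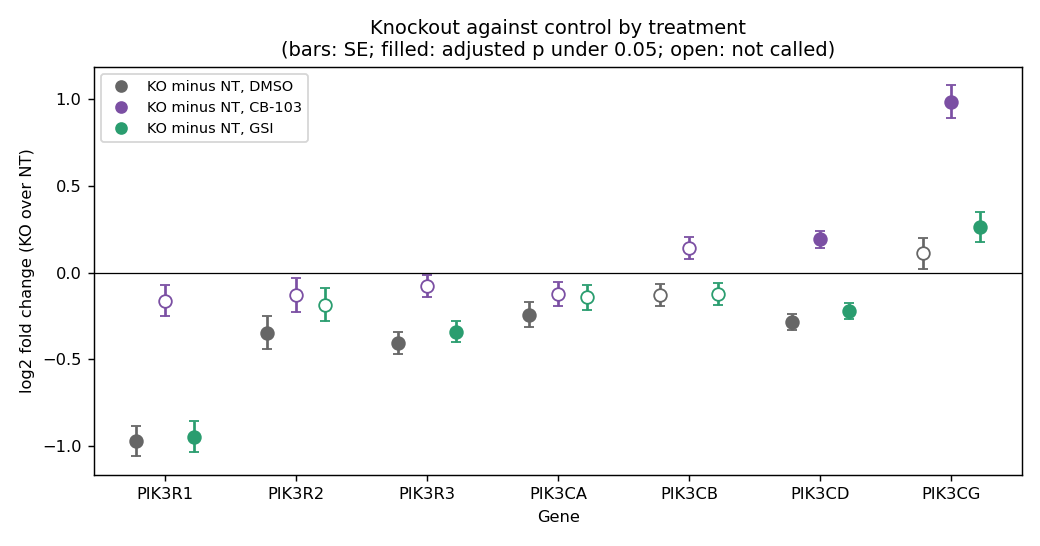
Log2 fold change of KO over NT (vertical axis) for the 7 tested members (horizontal axis) under DMSO (grey), CB-103 (purple) and GSI (green), with SE; filled points have an edgeR adjusted p under 0.05. PIK3R1 lies at -0.97 under DMSO, -0.95 under GSI and -0.16 under CB-103, and PIK3CG lies at 0.99 under CB-103.

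CB-103 lowered 6 of the 7 tested members in NT cells. The largest falls in NT were those of PIK3CG, which moved from 21.3 ± 0.31 to 8.77 ± 0.22 CPM (mean ± SD, n = 3; -1.28 ± 0.09, edgeR adjusted p = 1.9e-09), and PIK3CD, from 163.1 ± 2.76 to 75.9 ± 2.37 CPM (-1.10 ± 0.05, adjusted p = 1.1e-12). PIK3R3 fell by 1.02 on the log2 scale, PIK3R2 by 0.81, PIK3CB by 0.51 and PIK3R1 by 0.50, from 44.1 ± 1.53 to 31.1 ± 2.21 CPM (adjusted p = 7.4e-05). For each of the 6, every CB-103 library in NT cells lay below every DMSO library. PIK3CA alone was not called, with -0.10 ± 0.07 and an interval of -0.25 to 0.05. Of all tested genes 28.7% were called lower and 29.5% higher in this comparison, and the median was 0.04 against -0.81 for the members.

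In KO cells CB-103 lowered 5 members and raised PIK3R1. PIK3R3 fell by 0.70, PIK3CD by 0.63, PIK3R2 by 0.60, PIK3CG by 0.41 and PIK3CB by 0.24, each called by edgeR, the last with an adjusted p = 0.0036 (9.3e-04 to 0.065 over the alternatives, 0.065 with replicates 2 and 3 only). PIK3R1 moved from 22.5 ± 1.02 to 27.8 ± 2.01 CPM (0.31 ± 0.09, adjusted p = 0.0088), and all 3 CB-103 libraries lay above all 3 DMSO libraries. Its adjusted p ran from 0.0014 to 0.067 over the alternatives, with 0.059 when replicate 2 of KO DMSO was left out and 0.067 when replicate 2 of KO CB-103 was. KO CB-103 replicates 2 and 3 are the libraries with PIK3R1-215 reads, with gene counts 20.0% and 7.02% above their read sums (-1.35% to 9.63% in KO DMSO). PIK3R1-211 alone rose by 0.28 (edgeR adjusted p = 0.014). That call ended with no count filter (0.073) and with replicates 2 and 3 only (0.23). It also ended without KO DMSO replicate 1 (0.072), KO CB-103 replicate 1 (0.070) or KO CB-103 replicate 3 (0.064), and its p ran from 0.0070 to 0.23. Of all tested genes 23.7% were called lower and 24.9% higher, and the median was -0.01 against -0.41 for the members.

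The difference between these responses was tested as an interaction, the KO response minus the NT response. It was positive and called for 4 members, beside 10.3% of all genes called positive and 4.34% negative. For PIK3R1 it was 0.81 ± 0.13 (edgeR adjusted p = 3.4e-04), for PIK3CG 0.87 ± 0.13 (adjusted p = 2.5e-04), for PIK3CD 0.48 ± 0.07 (adjusted p = 1.3e-04) and for PIK3R3 0.33 ± 0.09 (adjusted p = 0.018). The PIK3R3 value missed the threshold with replicates 2 and 3 only (0.066; 0.0021 to 0.066 over the alternatives). PIK3CB was at 0.27 ± 0.09 with an adjusted p = 0.0502, which ran from 0.019 to 0.15 over the alternatives and was 0.028 with the replicate block. PIK3R2 (0.22, interval -0.07 to 0.50) and PIK3CA (0.12, interval -0.09 to 0.33) were not called. The leading transcripts PIK3R1-211 (0.82, adjusted p = 9.6e-04) and PIK3CD-202 (0.53, adjusted p = 0.0074) were also called, where 1.76% of all tested transcripts were. No other leading transcript of a tested member was called, and that of PIK3R3, PIK3R3-201, was at 0.45 (edgeR adjusted p = 0.069). For PIK3R1-211 the call ended with replicates 2 and 3 only (0.061; 6.4e-04 to 0.061 over the alternatives). In the same interaction 7 of the 12 T-ALL and thymocyte markers were called positive and 0 negative.

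**Figure D4:**
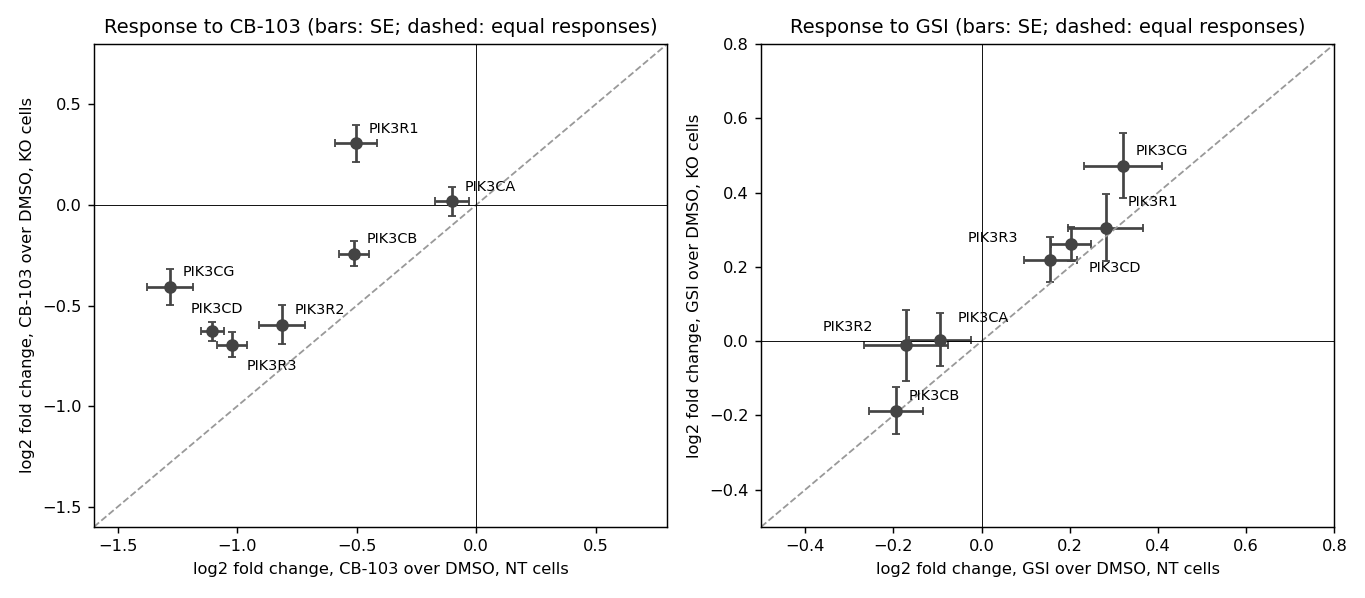
Log2 fold change with an inhibitor over DMSO in NT cells (horizontal axis) and in KO cells (vertical axis) for the 7 tested members, with SE, for CB-103 (left) and GSI (right); the dashed line marks equal responses. All 7 points lie above the line for CB-103, PIK3R1 and PIK3CG farthest, and close to it for GSI.

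GSI raised 3 members and lowered 1 in NT cells. There PIK3CG rose from 21.3 ± 0.31 to 26.6 ± 1.56 CPM (0.32 ± 0.09, edgeR adjusted p = 0.013) and PIK3CD from 163.1 ± 2.76 to 187.6 ± 5.41 CPM (0.20 ± 0.05, adjusted p = 0.0033). PIK3R1 rose from 44.1 ± 1.53 to 53.6 ± 3.22 CPM (0.28 ± 0.09, adjusted p = 0.023), and PIK3CB fell by 0.19 (adjusted p = 0.030). The PIK3R1 call ended with replicates 2 and 3 only and without NT DMSO replicate 1 or 3 or NT GSI replicate 2 or 3 (p from 0.0022 to 0.13). In the transcript fit PIK3R1-211 alone was at 0.22 and was not called (edgeR adjusted p = 0.13, and 0.12 to 0.62 over the alternatives). PIK3CD-202 alone was at 0.17 (adjusted p = 0.21), also not called. The PIK3CB call ended with only the compared groups fitted and without NT DMSO replicate 2 or 3 or NT GSI replicate 3 (0.015 to 0.13), and that of PIK3CG without NT GSI replicate 2 (0.080). PIK3R3, at 0.16 ± 0.06 (adjusted p = 0.071), was not called, but was at 0.16 with an adjusted p = 0.035 when the replicate number was a block, and over its alternatives p ran from 0.033 to 0.23. In this comparison 9.67% of all genes were called higher and 15% lower, and the median was 0.01 against 0.16 for the members.

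In KO cells GSI gave 4 higher members and 1 lower, beside 9.69% and 9.58% of all genes. PIK3CG rose by 0.47 (edgeR adjusted p = 9.7e-04), PIK3CD by 0.26 (adjusted p = 5.3e-04), PIK3R1 by 0.31 (adjusted p = 0.023) and PIK3R3 by 0.22 (adjusted p = 0.017), and PIK3CB fell by 0.19 (adjusted p = 0.045). The PIK3R1 call ended with replicates 2 and 3 only, with only the compared groups fitted, and without KO DMSO replicate 2 or KO GSI replicate 2, its highest library (p from 4.0e-04 to 0.16). That of PIK3R3 ended with no count filter, with replicates 2 and 3 only, and without KO DMSO replicate 1 or KO GSI replicate 1 or 2 (0.0022 to 0.086). That of PIK3CB ended in 10 of its 16 alternatives (0.027 to 0.21). No member was called in the GSI interaction, where 2.79% of all genes were. That background of 484 genes ran from 53 (without NT DMSO replicate 1) to 1505 (without NT GSI replicate 2) when 1 library was left out, and was 42 with replicates 2 and 3 only and 1227 by the DESeq2 Wald test. At an unadjusted p under 0.05 the count was 0 of 7, and by the DESeq2 Wald test at an adjusted p under 0.05 it was 0. For PIK3R1 that interaction was 0.02, with an interval of -0.24 to 0.29.

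Set directly against GSI, CB-103 left 6 members lower in NT cells and 4 lower in KO cells, with none higher in the gene table. In KO cells, gene sums of transcript reads also called PIK3CA higher (0.14, edgeR adjusted p = 0.010; up to 0.99) and PIK3CB lower (-0.14, adjusted p = 0.049; up to 0.89). Of all genes, 27.1% were called lower and 29.2% higher in NT cells, and 23.1% lower and 24.7% higher in KO cells. The widest gap was that of PIK3CG in NT cells (-1.602 ± 0.09, edgeR adjusted p = 8.9e-11), followed by PIK3CD (-1.31 ± 0.05) and PIK3R3 (-1.18 ± 0.06). For PIK3R1 the difference was -0.78 ± 0.09 in NT cells (adjusted p = 4.1e-07) and 0.00 in KO cells, with an interval of -0.19 to 0.19. With unknown doses, the 2 inhibitors are set side by side only as used here, and these comparisons share libraries with those against DMSO.

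PIK3CA, the only tested member without a call for either inhibitor in the gene table, differed between its 2 main transcripts. From gene sums of transcript reads it was called higher with CB-103 in KO cells (0.19 ± 0.04, edgeR adjusted p = 9.9e-04; 9.9e-04 to 1.0 over the alternatives). PIK3CA-201 (9093 nt, 1068 codons) ends at position 179240093 of chromosome 3, and PIK3CA-205 (4130 nt, 1000 codons) ends upstream at 179235098. The longer form held 64.3% ± 4.4 of PIK3CA reads in NT DMSO libraries (SD, n = 3), 77.6% ± 2.8 under CB-103 and 63.9% ± 1.1 under GSI. In KO libraries it held 65.5% ± 1.5, 72.1% ± 6.7 and 62.0% ± 2.0, so the CB-103 shift was less uniform there. In the transcript fit PIK3CA-201 rose with CB-103 by 0.32 in NT (edgeR adjusted p = 0.0045) and 0.34 in KO cells (adjusted p = 0.0046). PIK3CA-205 fell by 0.61 in NT cells (adjusted p = 0.012) and was at -0.07 in KO cells (adjusted p = 0.86), and the interaction of 0.54 was not called (0.36). Of all tested transcripts, 21.9% were called with CB-103 in NT cells and 15.2% in KO cells. Reads from sequence that both forms share must be split between them, and the uncertainty of that split is not part of these p-values.

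To compare genes with each other, TPM was used, which corrects for transcript length. In NT DMSO libraries the order of summed TPM was PIK3CD (39.3), PIK3CB (35.2), PIK3R2 (31.0), PIK3CA (20.9), PIK3R3 (16.1), PIK3R1 (10.3), PIK3CG (6.22) and PIK3R5 (0), and no neighbours overlapped in their 3-library ranges. PIK3R1, the knocked-out gene, was thus the least abundant of the 3 class IA regulatory transcripts before any treatment. In KO DMSO libraries PIK3R1 (5.62) stood below PIK3CG (7.21) by summed TPM, and PIK3CD (34.6) and PIK3CB (34.5) overlapped. By leading transcript PIK3R1 (4.98) and PIK3CG (4.79) overlapped there, with PIK3R1 the higher, and in NT DMSO libraries PIK3CA (9.21) overlapped PIK3R1 (9.93). Under CB-103 PIK3CB had the highest summed TPM in both genotypes (25.5 in NT, 28.4 in KO), with PIK3CA, PIK3CD and PIK3R2 overlapping as neighbours in NT cells. Under GSI PIK3CD led in both genotypes (47.9 and 39.0 TPM). The sum for PIK3CB includes 10.6 TPM of PIK3CB-202, a transcript of 667 nt, in NT DMSO libraries, and by leading transcript alone PIK3R2 (30.05) stood above PIK3CB (19.3). By leading transcript the mean of PIK3CB was also below those of PIK3R2 and PIK3CD under CB-103, with 13.9 against 17.2 and 17.2 TPM in NT and 15.3 against 16.5 and 19.9 in KO cells. The 3-library ranges of PIK3CB and PIK3R2 overlapped in both genotypes.

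The ratio of class IA regulatory TPM (PIK3R1, PIK3R2 and PIK3R3) to catalytic TPM (PIK3CA, PIK3CB and PIK3CD) was lower in KO than in NT cells under each treatment. Its numerator includes PIK3R1, the knocked-out gene, so a lower level of PIK3R1 by itself lowers the ratio, which was not computed without it. It was 0.601 ± 0.019 in NT DMSO and 0.508 ± 0.020 in KO DMSO libraries, 0.525 ± 0.022 and 0.457 ± 0.023 under CB-103, and 0.606 ± 0.0070 and 0.529 ± 0.031 under GSI (SD, n = 3). The NT and KO ranges did not overlap in any treatment, and by leading transcripts alone the same held, with means of 0.852 and 0.708 under DMSO. PIK3R1 made up 17.9% ± 0.60 of regulatory TPM in NT DMSO and 12.6% ± 0.69 in KO DMSO libraries, 21.5% and 14.4% under GSI, and 22.1% and 21.6% under CB-103. By leading transcript, which leaves out PIK3R1-215, the CB-103 shares were 22.8% ± 1.1 in NT and 19.8% ± 1.3 in KO libraries, with no overlap. PIK3CD made up 41.2% of catalytic TPM in NT cells under DMSO, 29.3% under CB-103 and 47.3% under GSI. In KO cells the shares of PIK3CD were 39.3%, 31.6% and 45.7%. No p is given for these ratios, which combine members; protein was not analysed here.

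**Figure D5:**
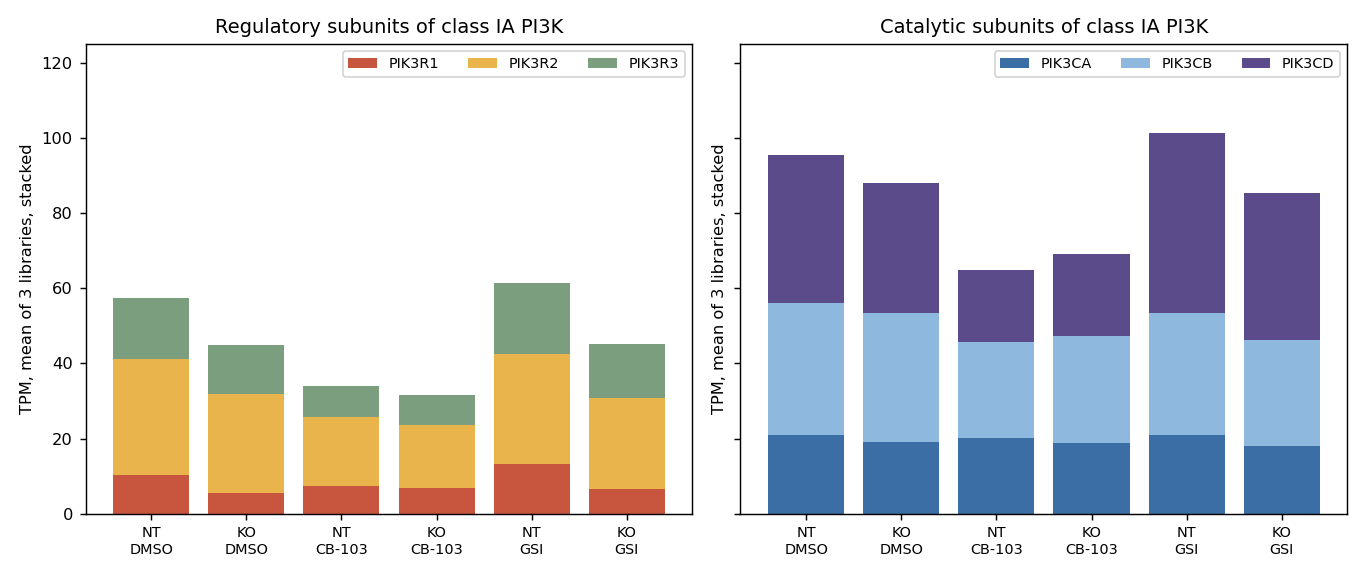
Mean TPM of 3 libraries stacked by gene (vertical axis, from 0) for the class IA regulatory subunits (left) and catalytic subunits (right) in the 6 groups (horizontal axis). The regulatory stack of means, which includes the knocked-out PIK3R1, is shorter in KO than in NT cells under every treatment, and the PIK3CD block shrinks under CB-103. Under CB-103 the 3-library ranges of summed regulatory TPM overlap, at 30.6 to 36.5 in NT and 30.2 to 33.8 in KO cells.

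Across the 18 libraries the members did not move as one. PIK3R3 and PIK3CD had the highest correlation of log2 CPM among members (Pearson r = 0.97), followed by PIK3R2 and PIK3R3 (0.92). PIK3R1 stayed at 0.63 or below with every other member, and PIK3CA with PIK3CG was at -0.15. Among the 10427 genes that averaged 5 CPM or more, the closest to PIK3R1 were PTK7 (0.95), KCTD1 (0.94), EPM2A (0.92), CD247 (0.92) and GPA33 (0.92). Nearest to PIK3R3 were STAT5A, CDCA7 and DLGAP5 (all 0.99), to PIK3R2 SMAD2, FTSJ3 and ZNF362 (all 0.98), and to PIK3CD TPM4, TMSB15A and CASTOR1 (all 0.99). For PIK3CG they were NRM (0.99), BCL2 (0.98) and RAC2 (0.98), for PIK3CB DBN1, PDLIM2 and CORO2A (0.94, 0.94 and 0.93), and for PIK3CA LIX1L (0.88), WDR47 (0.84) and NFYA (0.83). These values describe 18 libraries in 6 groups, whose group differences they share.

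The remaining genes of the pathway were read from lists of upstream receptors and adaptors, other PI3K subunits, lipid phosphatases, AKT and mTOR components, and effectors. Of the 7 tested other PI3K genes, 3 were higher and 1 lower in KO cells under DMSO and under GSI, and 2 higher and 1 lower under CB-103. PIK3R6, the p84 partner of p110γ, was higher under all treatments at a low level, from 0.50 to 1.51 CPM under DMSO (1.59 ± 0.27, edgeR adjusted p = 2.5e-04), from 0.25 to 0.75 under CB-103 and from 0.80 to 1.84 under GSI. The class II gene PIK3C2A was lower under all treatments (-0.45, -0.36 and -0.46 under DMSO, CB-103 and GSI). PIK3C3, the class III enzyme, was higher under DMSO (0.32) and GSI (0.47), and PIK3C2B under CB-103 (0.21).

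Of 18 tested receptors and adaptors, 1 was higher and 6 lower in KO cells under DMSO, 5 and 4 under CB-103, and 2 and 6 under GSI. LAT, the adaptor that gathers signalling proteins at the T-cell receptor, rose by 0.91, 1.34 and 1.08 under DMSO, CB-103 and GSI. GAB2, a docking protein with p85-binding sites, fell by 0.77, 0.92 and 0.83 in the same order. IRS2, the insulin receptor substrate, fell by 0.81, 0.92 and 0.55, and PIK3AP1, an adaptor for PI3K in lymphocytes, rose by 0.73 under CB-103 and 1.10 under GSI and was at 0.31 under DMSO (edgeR adjusted p = 0.072).

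Of 14 tested effectors, 3 were higher and 1 lower in KO cells under DMSO, 9 and 1 under CB-103, and 6 and 2 under GSI. FOXO6 rose by 0.68, 1.10 and 0.74 under DMSO, CB-103 and GSI, FOXO1 by 0.39, 0.60 and 0.32, and the RAC exchange factor PREX1 by 1.06 under CB-103 and 0.39 under GSI.

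The remaining lists held 11 lipid phosphatases and 19 AKT and mTOR genes, all of them tested. Under DMSO 2 phosphatases were higher (SYNJ2 by 0.33, INPP4A by 0.29) and 1 lower (INPP5E by 0.28). With CB-103, 2 were higher and 3 lower, with SYNJ2 up by 0.63, INPP5D (SHIP1, which removes the 5-phosphate of PIP3) up by 0.59 and INPP4B at -0.99, from 0.95 to 0.48 CPM. With GSI, 2 were higher and 2 lower, INPP5E at -0.48 and INPPL1 at -0.46, with INPP4A at 0.32. Of the AKT and mTOR genes 2 were higher and 1 lower under DMSO, among them RICTOR (0.33) and AKT1 (-0.20). CB-103 gave 6 higher and 2 lower, among them TBC1D7 (0.42), MAPKAP1 (0.34), TSC2 (-0.42) and AKT1 (0.21), the last named after its values were seen, and GSI 4 and 5, among them TSC2 (-0.46), TSC1 (-0.31) and AKT1S1 (0.29). Over all tested genes, 21.4%, 37% and 33.8% were called in either direction under DMSO, CB-103 and GSI, which is the background for all of these counts.

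Some members share exons with other annotated genes. The same-strand model AC007192.1 covers 87.3% of PIK3R2 exon bases and had at most 40 counts, against up to 3391 for PIK3R2. KCNMB3 lies opposite 35.8% of PIK3CA exon bases with at most 12 counts, and CLSTN1, with up to 12248, lies opposite 1.41% of those of PIK3CD. The libraries were strand-specific, but the sources used here do not say whether strand was used in quantification.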

How the data were processed

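RNA was sequenced from 18 libraries of RPMI-8402 cells, 3 in each of 6 groups taken from the labels. The authors deposited estimated counts and TPM for each transcript and, in a table of the whole series, estimated counts for each gene. Salmon 1.4.0, HISAT2 2.2.1, FastQC 0.11.9 and bcl2fastq 2.20 are listed in the submitters' processing notes, with hg38 as the build and no role or order. All transcript and gene identifiers matched GENCODE 29. Over genes with a mean count above 100, the median difference of the gene table was 2.84% against sums of transcript reads and 0.48% against length-scaled TPM recomputed from the deposited transcript values. No pair of libraries was identical.

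Deposited gene estimates were rounded to whole numbers, filtered with filterByExpr and scaled with TMM in edgeR 4.0.16 (R 4.3.3). A quasi-likelihood model with 1 mean per group was fitted to all 18 libraries, with 12 residual degrees of freedom, for 9 differences between groups and 2 interactions. P-values were adjusted by Benjamini-Hochberg over all tested genes within a comparison, and a call is an adjusted p under 0.05. Transcript estimates were fitted the same way. TPM, length-corrected by the authors, was used only to compare genes with each other, and no p was computed from it. The code was tested on simulated data with known changes between KO and NT under DMSO. It recovered 50% of 100 genes changed 1.5-fold and 63% of 100 changed 2-fold, with 3 false calls among unchanged genes.

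Alternatives were DESeq2 1.42.0 size factors and Wald test, limma-voom (limma 3.58.1), no count filter, gene sums of transcript reads, only the groups compared, a replicate block, replicates 2 and 3 only, and leaving out each library. Length-scaled TPM, with and without PIK3R1-215, and the ratio by leading transcript were chosen after seeing the data. Replicate numbers were taken to pair libraries where every same-numbered pair's deviations correlated above 0.1. This held for CB-103 against DMSO in NT cells (0.12 to 0.34) and GSI against DMSO in NT cells (0.13 to 0.28), and not in the other 7 comparisons. In every comparison, however, the replicate 1 pair correlated highest, at 0.27 to 0.34, against 0.03 to 0.17 for replicates 2 and 3. The replicate block gave more calls over all genes in every comparison. They numbered 4412 rather than 3720 for KO against NT under DMSO, and 1291 rather than 484 for the GSI interaction.

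The text names the 8 members and some, but not all, of their transcripts at 1 TPM or more (0.1 TPM for PIK3R1). It also names the most correlated genes (5 for PIK3R1, 3 for each other tested member, among genes averaging 5 CPM or more). From each pathway list, up to 3 called genes with the largest change are named per genotype comparison. The short PIK3R1 forms, PIK3R1-215 and AKT1 under CB-103 are named beyond this. Members and lists were chosen with earlier results of these data known. Some genes of the pathway lists are not reported here by name, and protein sequences were not analysed here.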

Additional observations from a re-analysis of the deposited data

Results flagged for a closer look

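The CB-103 response (CB-103 against DMSO) differed between KO and NT cells by the edgeR interaction test for 4 genes and 2 transcripts. The KO response minus the NT response was 0.81 ± 0.13 on the log2 scale for PIK3R1, where CB-103 gave -0.50 in NT cells and 0.31 in KO cells. It was 0.87 ± 0.13 for PIK3CG (-1.28 in NT, -0.41 in KO), 0.48 ± 0.07 for PIK3CD (-1.10 and -0.63) and 0.33 ± 0.09 for PIK3R3 (-1.02 and -0.70). For the transcripts PIK3R1-211 and PIK3CD-202 it was 0.82 and 0.53. KO and NT libraries of PIK3R1 and PIK3R3 overlapped under CB-103 and were apart under DMSO, whereas those of PIK3CG overlapped under DMSO and were apart under CB-103. Groups of 3 libraries are too small for a check of single outlying libraries.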

How the results depend on the processing

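Of the values recomputed without leaving out a library, 863 kept their direction and side of the threshold, 20 gained a call, 22 lost one, 16 changed sign and 3 counts moved by over 1.5 times; with 1 library left out the numbers were 627, 3, 40, 22 and 10. PIK3R1 in KO against NT under CB-103 gained a call from gene sums (-0.33) and from length-scaled TPM without PIK3R1-215 (-0.27), and PIK3R1-211 lost its call with no count filter (-0.27) and replicates 2 and 3 only (-0.29). Members called numbered 4 rather than 2 for KO against NT under CB-103 by gene sums, and 3 (no count filter) or 2 (replicates 2 and 3 only) rather than 5 for GSI in KO cells. Calls over all genes shifted the same way, to 7518 from 6412 in the first case, and to 3044 and 2990 from 3341 in the others. The sign changes were all in values that were not called. PIK3CA turned to 0.085 (CB-103 in NT), 0.0058 (GSI in NT) and 0.080 (CB-103 against GSI, NT) by gene sums and to -0.010 (GSI in KO) with no count filter. For CB-103 against GSI in KO cells, PIK3CA was -0.012 by DESeq2 size factors and the Wald test and -0.017 with replicates 2 and 3 only, and PIK3R1 was -0.026 by both DESeq2 fits, -0.075 by gene sums, -0.0013 by length-scaled TPM and -0.058 without PIK3R1-215. PIK3R2 with GSI in KO cells was 0.0050 by DESeq2 size factors, 0.0048 by the Wald test and 0.0024 with replicates 2 and 3 only, and the GSI interaction of PIK3R1 was -0.026 without PIK3R1-215. The causes were not tested.

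Leaving out each library gave, for PIK3R1 in KO against NT, -1.002 to -0.94 under DMSO, -0.24 to -0.12 under CB-103 and -1.06 to -0.85 under GSI, with a CB-103 interaction of 0.74 to 0.86 and a GSI interaction of -0.094 to 0.12. PIK3R1-211 in KO against NT under CB-103 ran from -0.36 to -0.20. The number of members called ran from 3 to 5 for KO against NT under DMSO, 2 to 4 for GSI in NT and 3 to 4 for GSI in KO cells. Over all genes the calls also fell, to 2944 to 3298 from 3720, to 3234 to 4206 from 4277, and to 2472 to 2817 from 3341, in the same order. Signs changed in PIK3CA for CB-103 in KO (-0.044 to 0.081), GSI in KO (-0.0067 to 0.037) and CB-103 against GSI (-0.057 to 0.061 in NT, -0.074 to 0.052 in KO), in PIK3R2 for GSI in KO (-0.096 to 0.066), in PIK3R1 for CB-103 against GSI in KO (-0.098 to 0.12) and in the GSI interaction of PIK3CB (-0.024 to 0.065). With the replicate number as a block, PIK3R1 was -0.97, -0.16 and -0.95 in KO against NT under DMSO, CB-103 and GSI, and among the members the block changed only the calls given above for PIK3R2, PIK3R3 and the PIK3CB interaction. The comparison of proteins was not run. PIK3R5 and the short PIK3R1 forms had too few reads for a comparison.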
